A study of Arabidopsis thaliana with 2 samples.

Results

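The long arm of chromosome 4 of Arabidopsis thaliana was described in leaf chromatin of a wild type and of a chr5 mutant. The arm was taken as all bins of 10 kb on chromosome 4 whose midpoint lay from 6 Mb to 500 kb before the chromosome's largest end, which gave 1209 of the 11916 nuclear bins and of the 11969 bins in all. It runs from 6000001 to 18090000 in the coordinates of the deposited tables, counted from 1, and carries the midpoints of 3263 protein-coding genes and 154 annotated pseudogenes.

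The libraries were made by MNase-seq. Micrococcal nuclease cuts the DNA between nucleosomes, and the DNA that nucleosomes protect is sequenced, so that a count of reads per bin reports how much protected DNA was recovered from it. The CHR5 protein is a chromatin remodeller of the SNF2 family, in the branch of CHD1. Such proteins use ATP to slide or space nucleosomes, and CHD1 proteins are known from yeast for spacing nucleosomes over transcribed genes. Since 10 kb hold a long row of nucleosomes and mostly more than 1 gene, the values below give the amount of protected DNA over a bin and not the positions of nucleosomes. In Arabidopsis the arms hold most genes, whereas the regions around the centromeres hold most transposons in compact heterochromatin.

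There was 1 library per genotype, 1 from wild type leaf and 1 from chr5 mutant leaf, both from untreated plants grown on plates at 22 °C. The allele, the age of the plants and the number of plants pooled are not given in the labels. With 1 library each, no difference between the genotypes has a replicate check, no test between them was made, and what separates the libraries cannot be told apart from the genotype. In total 99909809 counts were read from wild type and 102961878 from the mutant, of which 99392770 and 102412872 fell on the 5 nuclear chromosomes. Each count was scaled to its library's nuclear total and is given as counts per 1000000 nuclear counts (CPM). The log2 ratio is the scaled mutant count over the scaled wild type count, with a pseudocount of 1 added to each count. Folds of single bins were taken from the scaled counts as they stand and carry, in parentheses, exact conditional binomial 95% intervals that cover counting error only, since reads are not independent molecules where PCR copies are kept.

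The arm drew 9381773 wild type counts, or 9.44% of the nuclear total, and 9809853 mutant counts, or 9.58%. The arm as a whole was therefore at a fold of 1.01 in the mutant (exact 95% interval 1.01 to 1.02). Ratios were read in the 1202 bins with a mean scaled count of at least 0.25 times the nuclear median, a limit of 20.05 CPM. Of the other 7 bins, 3 held no count in either library and 4 lay under the limit. Analysed bins held 2460 to 16139 wild type counts, with a median of 7691, and 2287 to 16379 mutant counts, with a median of 8066. The bins closest to the limit were 10530001 to 10540000, kept at a mean of 23.7 CPM, and 10540001 to 10550000, left out at 19.5.

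In the wild type, protected DNA followed the genes. The median analysed bin had 77.4 CPM, with quartiles of 61.6 and 93.2 and a coefficient of variation over bins of 29.3%. Gene-poor bins, under 25% protein-coding by length, had a median of 49.6 CPM. That median was 58.0 at 25 to 50% coverage, 73.8 at 50 to 75% and 94.7 above 75%. Across the 1202 bins, Spearman's rho of wild type count with protein-coding coverage was 0.72, against 0.67 across the 7891 analysed bins of the other chromosome arms. These correlations describe bins of 1 library, which share its depth. The base composition of the bins was not measured, and its part in these correlations was not tested.

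The wild type profile also changed along the arm. Of the 12 full stretches of 1 Mb, that from 7 to 8 Mb had the lowest median, 63.7 CPM, and that from 13 to 14 Mb the highest, 90.7. The first 3 Mb, next to the pericentromere, had a median of 68.4 CPM with 57.8% of a median bin in protein-coding genes. The last 3 Mb had 83.7 CPM with 74.3% in protein-coding genes, and a mean of 0.50% in pseudogenes against 4.0% in the first 3 Mb. The gene-rich distal end was thus 15.3 CPM above the proximal end, while the quartile ranges of neighbouring full stretches all overlapped.

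**Figure D1:**
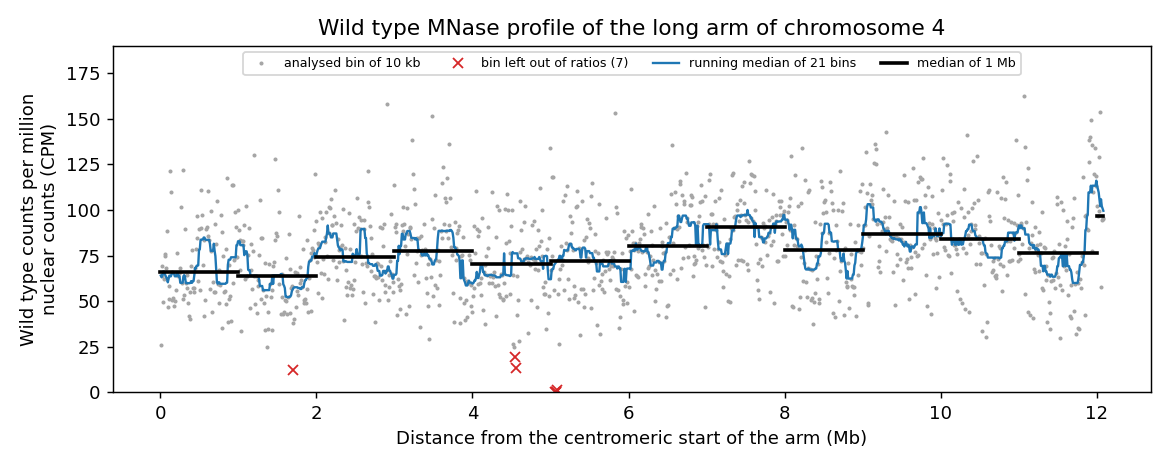
Wild type counts per 1000000 nuclear counts (vertical axis) in each bin of 10 kb against distance from the centromeric start of the arm in Mb (horizontal axis). Grey points are analysed bins, red crosses the 7 bins left out of ratios, the blue line a running median of 21 bins and the black bars medians of 1 Mb, which range from 63.7 to 90.7 over the 12 full stretches.

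Of the 5 most counted bins of the wild type arm, 2 lay at least 90% inside 1 protein-coding gene and the other 3 were over 40% annotated pseudogene. The highest, 17060001 to 17070000, lies entirely inside AT4G36080 and had 162 CPM in wild type and 160 in mutant leaf. Its neighbour inside the same gene, 17070001 to 17080000, had 135 and 132. The bin after that, with 33.0% protein-coding coverage, had 54.1 and 57.6. The second highest, 8900001 to 8910000, is 70.1% covered by the pseudogene AT4G15590 and had 158 in wild type and 146 in mutant leaf. The third, 18040001 to 18050000, is 90.8% covered by KAK, which encodes a HECT-type ubiquitin ligase that limits endoreduplication in trichomes, and had 154 and 149. The bin 11820001 to 11830000 holds AT4G22410 and the pseudogene AT4G22415, which overlap, and had 153 and 140. The fifth was 9480001 to 9490000, led by the pseudogene AT4G16870, with 151 and 127.

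Only 6 analysed bins of the arm lay at least 90% inside 1 protein-coding gene. They ranged from 105 to 162 CPM in the wild type with a median of 126, and so all 6 were above the arm's upper quartile of 93.2. Besides AT4G36080 and KAK they hold SPK1, a guanine nucleotide exchange factor gene of cell shape, TPP2, a tripeptidyl peptidase gene, AT4G17140 and AT4G32700. Their log2 ratios ran from -0.044 at KAK to 0.11 at AT4G17140, with 3 of 6 below 0.

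The lowest wild type bins held tandem repeats. No count was found in either library in 3 neighbouring bins from 11050001 to 11080000, which allows at most 0.030 CPM per bin in wild type and 0.029 in mutant leaf (3 counts). The next bin, 11080001 to 11090000, had 135 wild type and 111 mutant counts. These bins hold 11 protein-coding genes in tandem, AT4G20540 to AT4G20640, of which 8 of the 10 start-to-start distances are exactly 3259 bases and which have only 2 lengths, 1336 bases in 4 genes and 1013 bases in 7. Genes this alike can share reads, and how reads with several matches were handled is not given in the sources used here. A count of 0 was therefore not read as an absence of nucleosomes. The bins on either side were well covered, with 56.1 CPM in both libraries at 11040001 to 11050000 and with 53.9 and 54.1 at 11090001 to 11100000. The other 3 bins under the limit were 7690001 to 7700000, with 12.1 CPM in wild type and 12.2 in mutant leaf, 10540001 to 10550000, with 19.5 in both, and 10550001 to 10560000, with 13.4 and 11.8. Each of these 3 holds annotated pseudogenes over 29.7% to 54.9% of its length.

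The mutant library carried slightly more of its protected DNA on the arm, nearly evenly along its length. The median log2 ratio over the 1202 bins was 0.030, a fold of 1.02, and 303 bins (25.2%) were below 0. The SD over bins was 0.051, against 0.024 from Poisson counting alone, and the central 95% of bins lay between -0.072 and 0.11. In bins of 50 kb the observed SD was 0.027, with no Poisson value to set beside it. Scaling so that the median nuclear bin is at 0 lowers every ratio by 0.015 and leaves the arm at 0.015. The order of bins was almost the same in both libraries, with a Spearman's rho of 0.994 between the scaled counts across the 1202 bins.

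Differences of more than 1.1-fold were rare. Higher by more than 1.1-fold in the mutant were 12 arm bins (0.998%), where the share over all analysed nuclear bins was 0.81% and over the other arms 0.887%. Lower by more than 1.1-fold were 11 arm bins (0.915%), where the share over all nuclear bins was 2.65% and over the other arms 0.596%. Both arm shares lie near those of the other arms. With the median nuclear bin set to 0 the arm had 9 higher and 13 lower bins. A stricter filter, at 0.5 to 4 times the nuclear median, left 4 of the higher bins, and in bins of 50 kb 0 were higher and 0 lower. At a difference of 25%, taken as the same fold either way, 0 arm bins were higher and 2 were lower, 0.166% of the arm, where the nuclear share of lower bins was 0.179% and that of the other arms was 0% of 7891 bins. At a difference of 5%, 195 arm bins (16.2%) were higher and 32 (2.66%) lower, where the shares over the other arms were 13.7% and 3.23% and over all nuclear bins 12.1% and 9.29%.

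All 12 full stretches of 1 Mb had a median log2 ratio above 0. The lowest was 0.019 from 16 to 17 Mb and the highest 0.050 from 11 to 12 Mb, and the SD of the 12 medians was 0.0089. The median was 0.030 in the first 3 Mb and 0.020 in the last 3 Mb, a difference of -0.010, against an SD of 0.0089 between the medians of 1 Mb. This difference was -0.0060 with the arm taken from 7 Mb, -0.0017 with the arm ended 1 Mb before the end of the chromosome and -0.0054 in bins of 50 kb. Neighbouring bins resembled each other only weakly in their ratio. Pearson's r between bins 10 kb apart was 0.16 over 1198 pairs, and it was 0.030 at 20 kb and 0.00037 at 100 kb, given as descriptions of this pair of libraries.

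**Figure D2:**
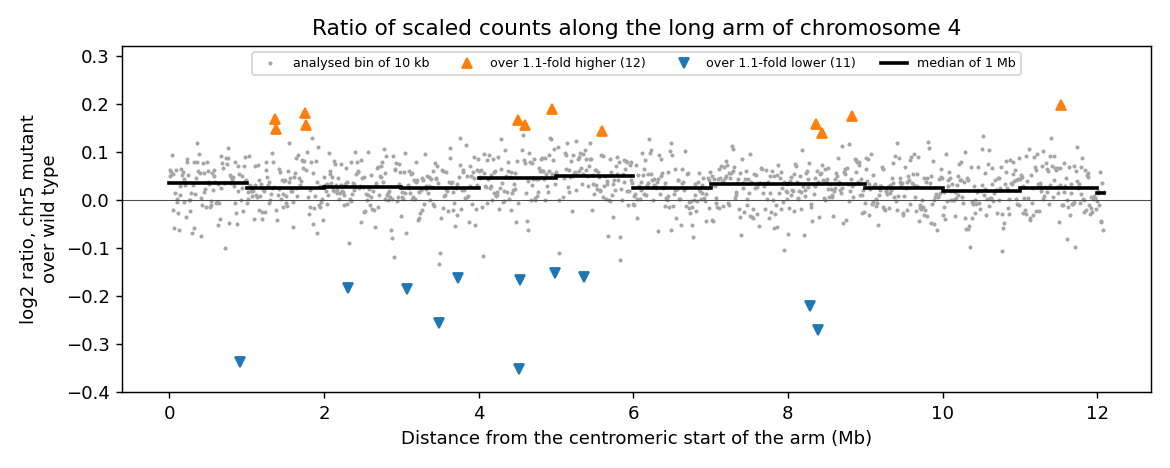
Log2 ratio of scaled mutant to wild type counts (vertical axis) in each analysed bin against distance from the centromeric start of the arm in Mb (horizontal axis). Grey points are bins, triangles the 12 bins over 1.1-fold higher and the 11 over 1.1-fold lower, and black bars medians of 1 Mb, which lie between 0.019 and 0.050 in the 12 full stretches.

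Set beside other regions, the arm was close to the other arms and far from its own pericentromere. The other arms together had a median log2 ratio of 0.021, which puts the arm 0.0082 above them, or 0.0042 in bins of 50 kb. Taken separately, the arms of chromosome 1 were at 0.028, those of chromosome 3 at 0.017 and those of chromosome 5 at 0.024. The nearest in kind, the long arm of chromosome 2, was at 0.015 over 1360 bins. The pericentromere, taken as 2 Mb either side of 4 Mb on chromosome 4, had 388 analysed bins with a median of -0.058, which puts the arm 0.088 above it, and 17.5% of them were lower by more than 1.1-fold. In the wild type those bins had a median of 97.2 CPM, above the arm's 77.4. None of these differences could be tested with 1 library per genotype.

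Within the arm the ratio moved with how much protected DNA a bin held. Divided into deciles by mean scaled count, the lowest decile had a median log2 ratio of 0.070 with 9 of 121 bins (7.44%) higher by more than 1.1-fold and 4 (3.31%) lower, where the shares over the arm were 0.998% and 0.915%. The median was 0.033 in the fifth decile and -0.0031 in the highest, where 0 of 121 bins were higher and 2 were lower. Spearman's rho of log2 ratio with mean count was -0.42 over 1202 bins, and -0.38 over the other arms. Sparsely and densely counted bins thus differed in the same direction on the other arms, where the deciles ran from 0.058 to -0.0087. On this arm gene-poor bins went with this order, since bins under 25% protein-coding had a median of 0.050 and bins over 75% one of 0.016. On the other arms bins under 25% protein-coding were at 0.023, below the 0.038 at 25 to 50% and the 0.025 at 50 to 75%. Bins over 75% were lowest there, at 0.012. The ratio and the mean count share the same counts, and what this order comes from was not tested.

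Bins made up of annotated pseudogenes departed from that order. In this gene table the class can include genes of transposons, which the table does not name apart. The class was chosen after values of these data were seen. Copies alike in sequence can share reads here too, and the treatment of such reads is unknown. Their part in the counts and ratios of this class was not tested. Of the 19 analysed bins with at least 40% of their length in pseudogenes, 14 were below 0, the median log2 ratio was -0.12 and 8 (42.1%) were lower by more than 1.1-fold. The other 1183 bins had a median of 0.030. Over all analysed bins of the arm the share lower by more than 1.1-fold was 0.915%, and over all analysed nuclear bins 2.65%. The wild type median of the 19 bins was 91.6 CPM, and the decile of arm bins nearest to that level, the eighth at 93.2 CPM, had a median log2 ratio of 0.017. The 15 bins with 25 to 40% pseudogene had a median of 0.031, so that on this arm the departure was seen in the highest of the 4 classes. At 40% or more, 20 of 228 bins of the other arms (8.77%) were lower, with a median of -0.029. In the pericentromere of chromosome 4 the figures were 51 of 165 (30.9%) and -0.10. At 25 to 40%, unlike on this arm, 11 of 193 bins of the other arms (5.70%) were lower, with a median of -0.011. In the pericentromere these figures were 13 of 59 (22.0%) and -0.072. With a limit of 30% in place of 40% the arm's class had 28 bins, a median of -0.067 and the same number of 8 lower bins. With a limit of 50% it had 7 bins, a median of -0.12 and 3 lower bins.

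The 19 bins were not alike. They ranged in log2 ratio from -0.34 to 0.12. The lowest was 6910001 to 6920000, where AT4G11373 overlaps the pseudogene AT4G11375, with 11299 counts in the wild type against 9221 in the mutant, at a fold of 0.792 (0.770 to 0.814). Its neighbours had folds of 1.04 and 0.999, so the difference was limited to this bin. At the other end were 2 neighbouring bins, 6350001 to 6360000 and 6360001 to 6370000, that share the transcribed pseudogene AT4G10201 and had folds of 1.09 (1.04 to 1.13) and 1.06 (1.01 to 1.101). A further 1 above 1 was 11110001 to 11120000 with the pseudogene AT4G20725, at 1.07 (1.03 to 1.11). The remaining 2 above 0 hold the transcribed pseudogenes RLP49, named for a receptor-like protein, and AT4G32212, at folds of 1.02 and 1.03 whose intervals include 1. Of the leading genes of these 5 bins, AT4G10201, RLP49 and AT4G32212 are called transcribed in the table and AT4G20725 is not.

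**Figure D3:**
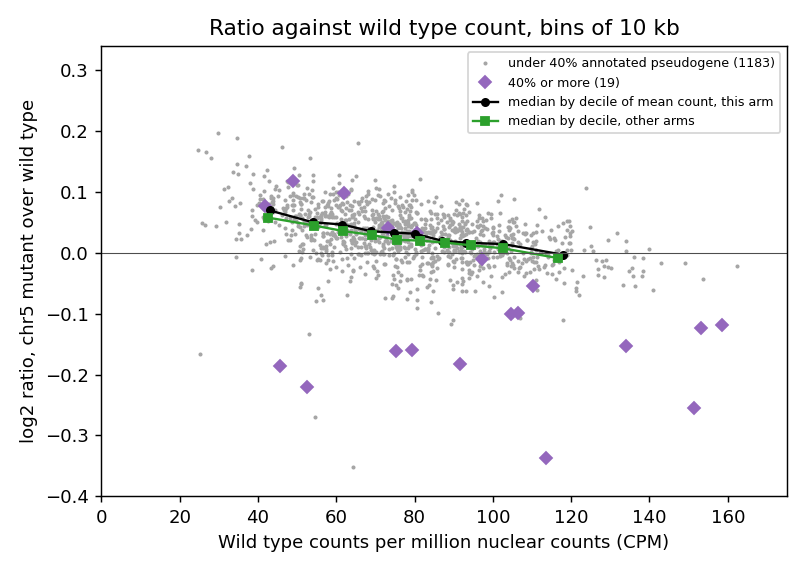
Log2 ratio of mutant to wild type (vertical axis) against wild type counts per 1000000 nuclear counts (horizontal axis) for the analysed bins of the arm. Purple diamonds are the 19 bins with 40% or more annotated pseudogene, grey points the other 1183, black circles the arm's medians by decile of mean count, from 0.070 to -0.0031, and green squares those of the other arms, from 0.058 to -0.0087.

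The 10 lowest bins of the arm had folds from 0.784 to 0.895, and 7 of them were at least 40% pseudogene, where 19 of all 1202 bins were. Besides 6910001 to 6920000, these 7 were led by AT4G16870 at 0.838 (0.818 to 0.858), AT4G28970 with AT4G28960 at 0.859 (0.825 to 0.893), and AT4G16020 with AT4G16010 at 0.879 (0.843 to 0.917). AT4G14460 was at 0.881 (0.855 to 0.907), AT4G17450 at 0.894 (0.865 to 0.924) and AT4G21360 at 0.895 (0.867 to 0.924). AT4G14460 shares its bin with ATBET12 and AT4G17450 shares its bin with the homeodomain gene HAT1. In their wild type counts these bins covered a wide range, from 45.6 CPM at AT4G16020 to 151 at AT4G16870.

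The other 3 of the 10 lowest bins held protein-coding genes and little or no pseudogene. The lowest of the arm, 10520001 to 10530000, is 27.0% covered by CYP707A1, which encodes an abscisic acid 8'-hydroxylase that breaks down this hormone, and also holds AT4G19240. It had 6396 counts in wild type and 5166 in mutant leaf, or 64.4 and 50.4 CPM, and lay at a fold of 0.784 (0.756 to 0.813). The bin after it, 10530001 to 10540000, with AT4G19260 and AT4G19250, counted 2491 and 2287, at a fold of 0.891 (0.841 to 0.943). The third, 14390001 to 14400000, holds AT4G29200 and OZF2, a zinc finger gene of stress responses, and counted 5427 and 4638, at a fold of 0.829 (0.797 to 0.863). Next to it the bin of RHS16 was at 1.03 (0.998 to 1.06) and that of PFK1, a phosphofructokinase gene, at 0.976 (0.945 to 1.01).

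Around CYP707A1 the ratio changed direction from bin to bin. The bin before it, 10510001 to 10520000, holds no annotated gene and was among the 10 highest, with 26.7 CPM in wild type and 29.96 in mutant leaf, at a fold of 1.12 (1.07 to 1.18). One bin further back, that of ABCE2 had 100.1 and 99.6 CPM. Beyond CYP707A1 the counts dropped to 13.4 CPM in the wild type at 10550001 to 10560000, a bin with the pseudogene AT4G19320. After that came the arm's only run of 5 or more neighbouring bins that differed by over 5% the same way, from 10560001 to 10610000. The run had 26025 counts in the wild type against 28787 in the mutant, at a fold of 1.07 (1.06 to 1.09), and covers EMB3006, AT4G19390, AT4G19410, AT4G19420 and AT4G19440 as leading genes. Its 5 bins lay between log2 ratios of 0.076 and 0.16. The next bin, led by the vesicle-tethering gene VPS54, was at 1.01 (0.983 to 1.04).

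Runs of 3 or more neighbouring bins that differed by over 5% numbered 7 in the higher direction and 1 in the lower. Runs were counted on this arm only, so no share for other regions stands beside these numbers. Of the single bins of the arm, 16.2% were over 5% higher and 2.66% over 5% lower. The lower run was in the RPP4 and SNC1 cluster, from 9480001 to 9510000. RPP4 and RPP5 encode intracellular immune receptors, called NLRs, that recognise downy mildew, and SNC1 is the NLR gene of the same cluster whose gain-of-function allele gives constant defence and dwarfing. The run had 29249 counts in the wild type against 26460 in the mutant, at a fold of 0.878 (0.863 to 0.893). Its first bin, with the pseudogene AT4G16870 and part of RPP4, had 151 CPM in wild type and 127 in mutant leaf. The RPP4 bin had 53.1 and 48.4 CPM, and the SNC1 bin 89.9 and 83.2. Outwards the values returned toward 1 on both sides. The bin of VRN2, a Polycomb gene of the vernalization response, was at 1.03 (0.997 to 1.054), and that of AT4G16900 at 0.974 (0.948 to 1.0003). The bins of AT4G16920 and AT4G16940 were at 1.04 each, that of RPP5 and AT4G16960 at 0.988 (0.952 to 1.03) and that of RLM3 at 1.01 (0.975 to 1.04). AT4G16880 lies in the RPP4 bin and has no value of its own. Members of the cluster are close copies of each other, so reads may be shared between them.

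**Figure D4:**
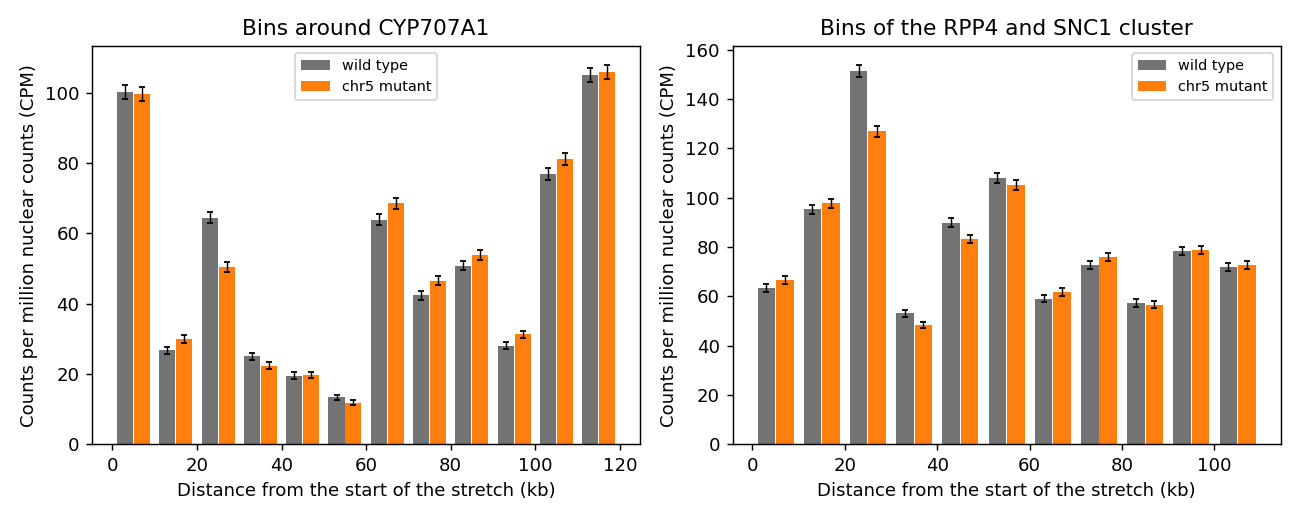
Counts per 1000000 nuclear counts (vertical axes) in neighbouring bins of 10 kb against distance from the start of the stretch in kb (horizontal axes), grey for the wild type and orange for the mutant, with exact Poisson 95% intervals that cover counting error only. On the left the CYP707A1 bin, at 64.4 and 50.4, is followed by low bins and then by 5 bins higher in the mutant, and on the right the AT4G16870, RPP4 and SNC1 bins are lower in the mutant.

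The 10 highest bins of the arm had folds from 1.11 to 1.15 and were sparsely counted. All 10 lay below the arm's wild type median, from 24.8 to 65.5 CPM, none was 40% or more pseudogene, and their median protein-coding coverage was 34.1% against 68.2% over the arm. The highest, 17530001 to 17540000, reaches 5.89% into AT4G37250 and had 2961 counts in the wild type against 3498 in the mutant, at a fold of 1.15 (1.09 to 1.204). Next was 10940001 to 10950000 with PCAP1, the gene of a cation-binding protein at the plasma membrane, with 3446 and 4049 counts, a fold of 1.14 (1.09 to 1.19). It closes a run of 4 bins from 10910001 to 10950000 at 1.09 (1.07 to 1.11).

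The other high bins formed pairs or stood alone. The cytochrome P450 gene CYP71A20 was in a bin with 65.5 CPM in wild type and 74.2 in mutant leaf, at a fold of 1.13 (1.096 to 1.17). The bin after it, with MEE55 and the cell wall extensin gene LRX3, was at 1.11 (1.07 to 1.16), and the bin before, with the terpene synthase gene TPS13, at 1.06 (1.02 to 1.097). TPPF, a trehalose 6-phosphate phosphatase gene, and APT4, an adenine phosphoribosyltransferase gene, lay in neighbouring bins at 1.12 (1.06 to 1.19) and 1.11 (1.06 to 1.16). The bin shared by XTH18 and XTH19, which encode enzymes that cut and rejoin xyloglucan in the cell wall, was at 1.13 (1.08 to 1.17). ADS1, a gene of the MATE transporter family, was at 1.12 (1.07 to 1.17) and AT4G19420, part of the run beyond CYP707A1, at 1.11 (1.06 to 1.17).

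Gene families of the arm were then read against its median of 0.030, with 899 of 1202 bins above 0. No bin of any of the 16 lists was lower by more than 1.1-fold, and 2 were higher, those of CYP71A20 and of XTH18 and XTH19, where over the arm 0.915% of bins were lower and 0.998% higher. Genes were placed in the bin of their midpoint, and genes that share a bin share its value. By this rule the bin led by AT4G16870 belongs to no list, although RPP4 reaches into it. Over all bins it overlaps, RPP4 had a mean log2 ratio of -0.19, which is past 1.1-fold lower.

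Immune genes were read by family. Of 22 bins with NLR genes, 12 were above 0 and 13 below the arm's median, and the list's median was 0.0073, or -0.0074 with the median nuclear bin set to 0. RPP4 and SNC1 were its lowest members, at log2 ratios of -0.13 and -0.11. Its highest were AT4G19530 at 0.097 and AT4G14370 at 0.066. RPS2, the receptor gene for a Pseudomonas effector, had 95.3 CPM in wild type and 94.9 in mutant leaf, and ADR1-L1, a helper NLR gene, 78.3 and 78.2. All 15 bins of the cysteine-rich receptor-like kinases, cell surface kinases that stand in tandem on this arm, were above 0, with a median of 0.053 and 13 of 15 above the arm's median. Their highest were CRK5, at 63.1 and 67.5 CPM and a log2 ratio of 0.097, and the bin of CRK33 and CRK34, at 0.090. Their lowest were the bin of CRK16, EMB1290 and CRK18 at 0.0093 and that of CRK8, EP1 and CRK10 at 0.013. The neighbouring kinase genes are close copies too, and the difference between the 2 families was not tested.

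Transcription factors of defence were near the arm as a whole. For WRKY genes 9 of 12 bins were above 0 with a median of 0.034. WRKY28 was highest at 0.096, followed by WRKY18, a regulator of basal defence, at 0.092, and WRKY32 at -0.031 and WRKY19 at -0.026 were lowest.

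Photosynthesis genes had 6 of 13 bins above 0, and their median was -0.0010 (-0.016 with the median nuclear bin set to 0), with 9 of 13 below the arm's median. LHCB5, which encodes an antenna protein of photosystem II, was lowest, with 78.2 CPM in wild type and 74.2 in mutant leaf and a log2 ratio of -0.076. PSAE-1, a photosystem I subunit gene, followed at 74.3 and 70.5 CPM and -0.074. FBA5, a fructose-bisphosphate aldolase gene, was at -0.072. The highest were LIL3:1, of the light-harvesting-like proteins, at 0.062 and ELIP2, an early light-induced protein gene, at 0.054. The list was chosen with earlier results of these data known, so its values are no independent support for a difference at photosynthesis genes.

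Genes of stress and cold responses were spread around the arm's median. Heat shock genes had 10 of 13 bins above 0 and a median of 0.031. The heat shock factor gene HSF A4A was highest at 0.10, with HSA32 at 0.096, and HSF1 at -0.045 and SHD, the gene of an endoplasmic reticulum HSP90, at -0.037 were lowest. In the CBF cluster, 3 tandem regulators of cold acclimation, CBF2 and DREB1A shared a bin at 0.050 and CBF1 lay in the next at -0.041. Auxin response genes had 8 of 8 bins above 0 and 4 of 8 above the arm's median, with a median of 0.028. Taken gene by gene over all bins that each overlaps, the medians were 0.079 for auxin response, 0.050 for heat shock and 0.050 for the CBF cluster. In these medians a bin shared by several genes enters once for each gene. This holds for the bin of CBF2 and DREB1A and for that of the small auxin-up RNA genes named next, so their repeated values are not separate measurements. The bin shared by AT4G34770, AT4G34780, AT4G34790, AT4G34800 and AT4G34810, small auxin-up RNA genes, was highest at 0.10 with 38.8 and 41.7 CPM, and IAA29, an Aux/IAA repressor gene, followed at 0.083. AT4G34750 at 0.0026 and ARF9 at 0.0073 were lowest.

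Developmental and seed genes, many of them little used in leaves, showed no common direction beyond that of the arm. Flowering and meristem genes had 5 of 8 bins above 0 and a median of 0.011. The floral homeotic gene AP2 was highest at 0.13, with 34.8 CPM in wild type and 38.1 in mutant leaf, followed by the MADS-box gene AGL24 at 0.10. FCA, which promotes flowering through RNA processing, was lowest at -0.042, with KNAT5 at -0.031. Seed storage and oil body genes had a median of 0.032, with 6 of 7 bins above 0. AT4G21020 was highest at 0.093 and OLEO1, an oleosin gene, next at 0.045, while CRU3, a cruciferin gene, was at -0.023 and UNE15 at 0.0089. The 2S albumin cluster lay in 2 bins, with SESA1 and SESA2 at 0.026 and SESA3 and SESA4 at 0.034. These were well covered, at 118 and 100.007 CPM in the wild type.

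Genes of chromatin and RNA silencing had 12 of 15 bins above 0 and a median of 0.036. VEL1, a VIN3-like gene of the Polycomb pathway, was highest at 0.12, with 60.7 CPM in wild type and 65.8 in mutant leaf. PKR2, which encodes a CHD-type remodeller related to PICKLE, had 70.0 and 74.3 and a log2 ratio of 0.088. CMT2, a DNA methyltransferase gene of transposons, was lowest at -0.021, and SUVH9, of RNA-directed DNA methylation, was at -0.015.

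Metabolic gene clusters were not alike. All 5 bins of the arabidiol and baruol cluster, a set of root triterpene genes, were above the arm's median, and their median was 0.078. BARS1, the baruol synthase gene, and CYP705A3 shared the highest bin, with 70.8 CPM in wild type and 76.1 in mutant leaf, at a fold of 1.08 (1.04 to 1.11). CYP702A5 and CYP702A6 were at 1.06 (1.02 to 1.11), PEN1, the arabidiol synthase gene, and CYP705A1 at 1.06 (1.02 to 1.09), CYP705A4 at 1.04 (1.004 to 1.08) and CYP705A2 at 1.03 (0.991 to 1.06). The bin between, led by AT4G15390, was at 1.0005. These bins had 50.8 to 70.8 CPM in the wild type, below the arm's median, a level at which the ratio was higher over the arm as a whole. Over all cytochrome P450 tandem genes, which include 5 of these bins, the median was 0.045, with 14 of 17 bins above 0. Of the 17 bins 10 were above the arm's median, the same 5 bins among them, and 7 were below it. The CYP706A4 bin was at 0.00052, that of CYP706A5, CYP706A6 and CYP706A7 at 0.012 and that of CYP81D2, CYP81D3, CYP81D4 and CYP81D5 at 0.017. CYP71A20 was its highest at 0.18, and CYP83A1, of glucosinolate synthesis, its lowest at -0.041, with CYP81H1 next at -0.011.

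Cell wall genes had 12 of 15 bins above 0 and a median of 0.048. After XTH18 and XTH19 the highest was XTH2 at 0.086, and the lowest were the bin of CSLG1 and CSLG2 at -0.015 and XTH7 at -0.0066. CESA1, the gene of a cellulose synthase subunit of primary walls, was well covered at 123 CPM in wild type and 124 in mutant leaf, with a log2 ratio of 0.0050. The 4 genes used as references in RNA assays were all above 0, from 0.028 at AT4G34270 to 0.058 at UBC9, with a median of 0.039.

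**Figure D5:**
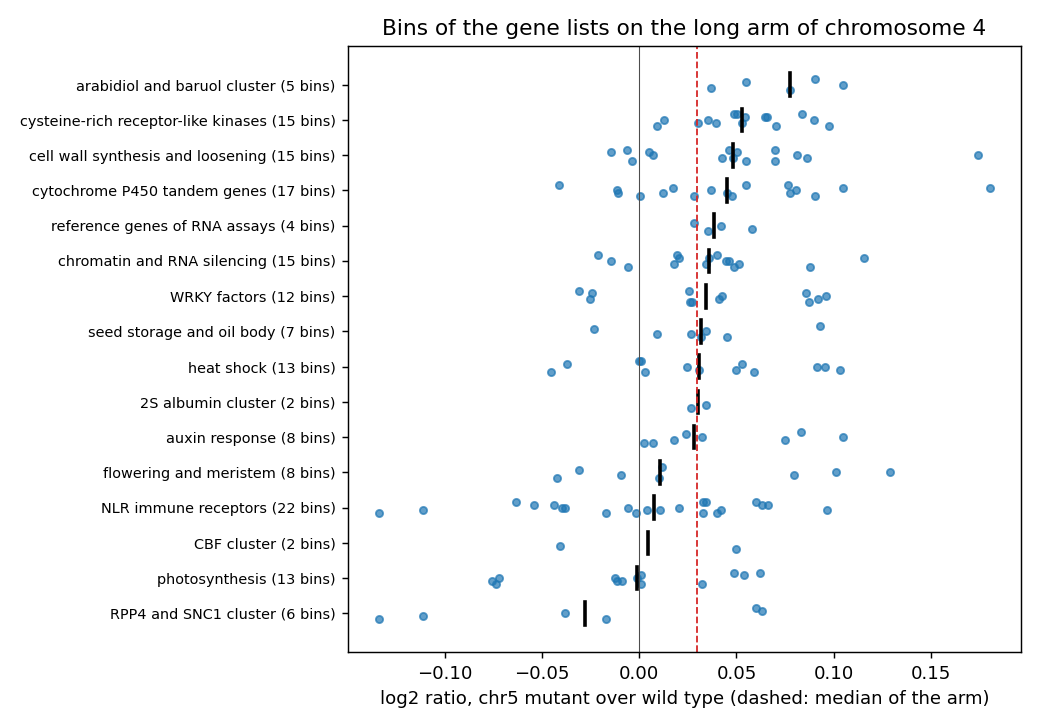
Log2 ratio of mutant to wild type (horizontal axis) in the bins that hold the genes of each list (vertical axis), 1 blue point per bin, with the list's median as a black bar and the arm's median of 0.030 as a red dashed line. The medians run from -0.028 in the RPP4 and SNC1 cluster to 0.078 in the arabidiol and baruol cluster, and 15 of 15 bins of the cysteine-rich receptor-like kinases lie above 0.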

How the data were processed

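For each library the authors deposited raw, whole-number counts in adjoining 10 kb bins. BWA 0.7.5a and bedtools are named, without their roles, in the submitters' processing notes. The genome build, and what was done with duplicates and multi-mapping reads, is not given in the sources used here.

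Counts were scaled to each library's nuclear total, and the log2 ratio, threshold and filter are those given with the results. Genes were placed by locus ID with a RefSeq table of TAIR10.1, whose coordinates are not printed. With no shift, the wild type log2 count and protein-coding coverage, both less a running median of 21 bins, had an r of 0.643 on the arm, and no more than 0.13 when shifted by 1 to 4 bins. All listed genes were matched. No sequence was used here.

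The other arms were the bins over 2 Mb from approximate centromeres of chromosomes 1, 3 and 5 (15, 14 and 12 Mb) and over 500 kb from their ends, and chromosome 2 from 5.6 Mb to 500 kb before its end. The pericentromere of chromosome 4 was within 2 Mb of 4 Mb.

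The members, lists and comparisons were chosen with earlier results of these data known. The text names the 10 highest and 10 lowest bins by ratio and the 5 highest and 5 lowest by wild type count among bins over 0, with up to 2 genes each, runs of 5 bins past 5%, the 2 highest and 2 lowest members of each list and all members of 4 small clusters. RPS2, ADR1-L1, PKR2, FBA5, CESA1, OLEO1, the CYP706A and CYP81D genes, the single-gene bins, shorter runs, neighbours of named bins and the pseudogene class were added after their values were seen. Scripts were tested on simulated counts. Work was done in Python 3.11.15 (scipy 1.17.1, pandas 2.3.3, numpy 2.4.6), with figures from matplotlib 3.10.9.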

Additional observations from a re-analysis of the deposited data

How the results depend on the processing

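No paired analysis was possible because each genotype has 1 library, so no replicate could be left out either. In all, 93 values for the arm, its ends, its lists and its pseudogene class stayed within a limit, and 29 moved by more. The limit came from 95% counting intervals or, for counts of bins, was 1.5 times. For ratios, and also for their SD over bins, it was taken from the summed counts of the bins. A change of scaling shifts all ratios alike. The SD and the differences of ratio between regions or ends therefore could not move under it, and these values are among the 93. With the median nuclear bin set to 0, which takes 0.015 off each ratio, the arm's median was 0.015 and the list medians were -0.0074 (NLR), 0.038 (cysteine-rich kinases), -0.016 (photosynthesis), 0.016 (heat shock), 0.021 (chromatin), 0.019 (WRKY), 0.030 (P450) and 0.033 (cell wall), and the pseudogene bins were at -0.13. In bins of 50 kb, 0 were higher and 0 lower by more than 1.1-fold, the SD was 0.027, the median 0.023, the difference between the ends -0.0054, and the arm was 0.0042 above the other arms and 0.091 above the pericentromere. Larger bins average their neighbours. The filter at 0.5 to 4 times the median left 4 higher bins and an SD of 0.050, and with no filter the arm was 0.085 above the pericentromere. An arm from 7 Mb gave ends that differed by -0.0060 in ratio and 11.6 CPM in the wild type, and an arm to 1 Mb before the end gave -0.0017. Leaving the 20 most counted bins out of the scaling gave a wild type median of 80.3 CPM. Taking each gene once, as the mean of all bins it overlaps, gave 0.050 for the CBF cluster, 0.050 for heat shock, 0.031 for P450 and 0.079 for auxin genes. A bin shared by several genes enters these medians once for each gene. The pseudogene class from 30% was at -0.067. The cause of a moved value was not tested for any setting.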
